A study of Mus musculus with 4 samples.

Results

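Transcripts of 10 immediate-early and dissociation response genes were counted in 4 lung tumor libraries: Fos, Fosb, Jun, Junb, Jund, Egr1, Atf3, Ier2, Zfp36 and Nr4a1. The genes were taken from the combined raw count table by an exact match of the gene symbol, and 10 of 10 were found among 39017 genes. The 4 libraries form 1 group, named Control, from male C57BL/6 KP mice. KP mice carry K-rasLSL-G12D/WT, an oncogenic allele held silent by a stop cassette until Cre removes it, and p53Fl/Fl, floxed alleles of the tumor suppressor p53. Each mouse received 1500 viral units of lenti.PGK-Cre through the trachea, a lentivirus in which the broadly active Pgk promoter drives Cre, and lungs were taken 22 weeks and 5 days later. The labels add heterozygous fl/wt without a gene, and per the study's methods a control mouse may carry 1 floxed copy of Slc2a1, the gene of the glucose transporter Glut1, or none. Libraries are called tumors 1 to 4 by their replicate number. The labels do not say how many tumors or mice went into each library, so a spread between libraries may be partly technical.

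All 4 samples were made into single-cell suspensions with an automated tissue dissociator before RNA was extracted. Tissue that was not dissociated was not analysed here, so transcripts present in the tumor and transcripts made during dissociation cannot be told apart. With 1 group there is no contrast, and the values below are levels and the spread between tumors. The study's methods describe both RNA from bulk tumors and RNA from fractions freed of immune cells by CD45, the latter for tumors started with PGK-Cre, whereas the labels of these samples mention no sort. Ptprc, which encodes CD45, had 26.2, 35.8, 83.4 and 38.5 CPM in tumors 1 to 4 (CPM, the count scaled to an effective library size of 1e+06, the normalized read count used throughout). The suspensions held epithelial transcripts at a summed 2488 to 3972 CPM over 4 markers and alveolar type 2 transcripts at 32860 to 60875 CPM over 8 markers, so that markers of both kinds were present.

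Immediate-early genes are transcribed within minutes of a stimulus, without new protein synthesis, because the factors that switch them on (serum response factor with its partners, and CREB) are already in the cell. Growth factor, stress and calcium signals reach these factors through MAP kinases, and the induced mRNAs are short-lived. Fos and Jun proteins pair as the transcription factor AP-1. Enzymatic and mechanical dissociation of tissue is known to induce many of the same genes, which makes them a common concern in suspensions of cells.

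Total counts were between 8151613 and 8799007 per tumor. At this depth 3 counts, the most that a count of 0 allows, corresponded to 0.330 to 0.370 CPM. Counts of the 10 genes summed to 2198, 1719, 1539 and 1798, which is 0.0189% to 0.0250% of all counts. Each pair of libraries differed beyond counting noise, with a mean chi-square per gene of 17.5 to 69.1 over the 6 pairs, so none was a duplicate of another. No library stood apart in total count, but values moved with the GC content of genes, as given with Junb, Jund and Ier2.

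The 10 genes were expressed in all 4 tumors, 9 of them at a mean of 9.23 CPM or more and Fosb at 1.37 CPM. All 10 passed the minimum mean of 1 CPM. Counts of 9 of the 10 varied between tumors beyond counting noise (chi-square test of the 4 counts with 3 degrees of freedom, adjusted over all genes tested at a threshold of 0.05). Of all 14225 genes tested, 76.7% did so, and the count of 9 says little about these genes in particular. Their SD of log2 CPM over 4 tumors had a median of 0.47, beside 0.29 over all genes tested, and 7 of 10 lay above that value. The gene-wise biological coefficient of variation had a median of 30.9%, beside 17.96% over all genes, and 4 of 10 genes lay above the edgeR trend at their own abundance. Without tumor 2 the medians of the 10 genes were an SD of 0.29, beside 0.30 over all genes tested, and a coefficient of 18.1%.

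**Figure D1:**
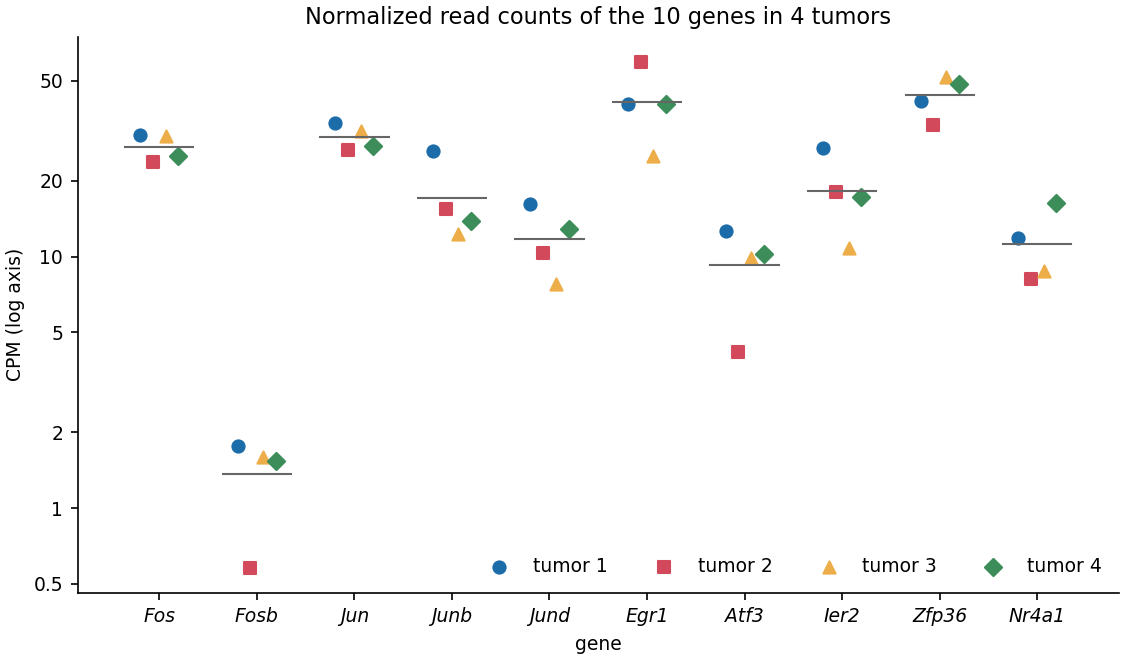
Normalized read count (CPM, log axis) of each of the 10 genes, with 1 point for each of the 4 tumors and a line at the mean. Fos and Jun lie close together in all 4 tumors, Fosb and Atf3 are lowest in tumor 2, and Junb, Jund and Ier2 are highest in tumor 1 and lowest in tumor 3.

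Fos, a rapidly induced subunit of AP-1, and Jun, its main dimer partner, varied least of the 10 genes. Fos (chr12:85473890-85477273, plus strand, 4 exons, GRCm38) had 30.5, 23.7, 30.2 and 25.1 CPM in tumors 1 to 4 (mean 27.4 ± 3.49, SD, n = 4), from 204 to 277 counts. Tumors 1 and 3 were the higher pair and tumors 2 and 4 the lower. Jun (chr4:95049034-95052222, minus strand, 1 exon) had 33.9, 26.5, 31.7 and 27.5 CPM (mean 29.9 ± 3.50), from 228 to 308 counts. The tumors split into the same pairs as for Fos. The highest tumor was 1.29 times the lowest for Fos (95% exact interval from the counts 1.07 to 1.55) and 1.28 times for Jun (1.07 to 1.53). Both varied beyond counting noise, with a chi-square per degree of freedom of 3.82 and 3.58, against a median of 8.19 over all genes tested. Fos no longer passed without tumor 2 (2.74), and Jun did not pass without tumor 1 (2.29) or without tumor 2 (2.96). Their SDs of log2 CPM, 0.19 and 0.17, were larger than those of 25.2% and 21.1% of the genes tested. Jun overlaps the antisense gene Junos over 689 bases, so the count of Jun is uncertain if strand was not used in counting. Junos had 5.50, 11.2, 16.0 and 9.04 CPM, an order unlike that of Jun.

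Promoter sequence was looked up for the 10 genes in RefSeq windows (GRCm38.p6) from 250 bases before to 50 bases after the start, and 8 of 10 had one, all but Egr1 and Ier2. The 120 bases before the start are shown for 5 genes whose RefSeq start carries the motif of CREB and ATF proteins or a variant of it nearby. Capitals mark TGACG, its complement CGTCA, TGANNTCA or TATAAA. The stretches are chr12:85473770-85473889 plus strand for Fos, chr4:95052223-95052342 minus strand for Jun, chr7:19310052-19310171 minus strand for Fosb, chr8:84978749-84978868 minus strand for Junb and chr15:101266726-101266845 plus strand for Nr4a1. The match of Atf3 lies directly before its RefSeq start and is not shown. Jund, whose window also holds TGANNTCA, is not shown either. The stretch of Fosb ends 7 bases before the RefSeq start, where an annotated exon begins.
Fos: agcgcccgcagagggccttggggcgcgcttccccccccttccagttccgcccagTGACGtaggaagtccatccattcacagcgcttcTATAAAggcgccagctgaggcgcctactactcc
Jun: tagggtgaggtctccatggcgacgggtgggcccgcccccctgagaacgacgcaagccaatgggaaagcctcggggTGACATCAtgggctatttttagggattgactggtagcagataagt
Fosb: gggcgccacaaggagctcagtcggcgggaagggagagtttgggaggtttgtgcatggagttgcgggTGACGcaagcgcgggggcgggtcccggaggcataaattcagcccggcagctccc
Junb: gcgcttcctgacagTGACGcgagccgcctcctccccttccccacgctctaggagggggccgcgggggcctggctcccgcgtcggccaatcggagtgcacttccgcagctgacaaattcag
Nr4a1: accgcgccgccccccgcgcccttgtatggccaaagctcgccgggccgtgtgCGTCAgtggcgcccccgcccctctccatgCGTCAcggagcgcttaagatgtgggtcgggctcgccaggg

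Over both strands of the whole 300-base window, TGACG was found for 5 of the 8 genes (Fos, Fosb, Junb, Atf3 and Nr4a1), beside 20.8% of all 32851 windows. TGANNTCA, which overlaps TGACG where the middle bases are CG, was found for Jun and Jund, beside 14.1% of windows. TATAAA was found for Fos and Junb (13.6% of windows), and that of Junb lies outside the stretch shown. The full palindrome TGACGTCA and the AP-1 motif TGANTCA were found for none of the 8 (1.79% and 7.81% of windows), and the CArG box of serum response factor was found for 1, Zfp36 (1.63% of windows). These windows cover only the bases next to 1 start per gene. The GENCODE annotation places the first start of Nr4a1, Atf3, Zfp36, Jund, Junb and Fosb elsewhere.

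Fosb and Atf3 shared a low value in tumor 2. Fosb, a Fos relative known for a long-lived shorter splice form, lies on the minus strand at chr7:19302696-19310051 with 4 exons. It had 1.76, 0.581, 1.60 and 1.55 CPM, from 16, 5, 13 and 13 counts (mean 1.37 ± 0.536 CPM, SD, n = 4). Tumor 2 was below the others, which lay between 1.55 and 1.76 CPM. Its highest tumor was 3.03 times its lowest, with a wide interval from the counts of 1.06 to 10.6. Fosb was the 1 gene of the 10 that did not pass the test against counting noise (chi-square per degree of freedom 1.81). It was also the 1 gene with a tumor apart, judged by the gap to the next tumor over the range of log2 CPM, which was 0.882, and 5.86% of all genes tested had a tumor apart. Its position apart therefore rests on 5 counts.

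Atf3, a stress-induced member of the ATF and CREB family that can repress its targets, lies on the minus strand at chr1:191170296-191218039 with 4 exons. It had 12.7, 4.18, 9.87 and 10.2 CPM, from 115, 36, 80 and 86 counts (mean 9.23 ± 3.59, SD, n = 4). The value of tumor 2 was below that of the other 3 tumors, and the highest was 3.03 times the lowest (95% exact interval 2.07 to 4.53). The chi-square per degree of freedom was 12.1, and it fell to 1.83, no longer past the threshold, without tumor 2. The deviations of Fosb and Atf3 from their own means differed by a root mean square of 0.084 on the log2 scale, the second closest of the 45 pairs among the 10 genes. Closest were Fos and Jun, at 0.036. These are descriptions over 4 tumors, and they carry no test.

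Junb, Jund and Ier2 formed a set with the highest value in tumor 1 and the lowest in tumor 3. Junb, a Jun relative that is weaker in activation and often opposes Jun, lies on the minus strand at chr8:84974484-84978718. It had 26.4, 15.4, 12.3 and 13.9 CPM (mean 17.0 ± 6.38, SD, n = 4), so that tumor 1 was above the other 3, which lay between 12.3 and 15.4 CPM. Its chi-square per degree of freedom was 20.9, and 1.43 without tumor 1, no longer past the threshold. Jund, the Jun gene known for steady expression in resting cells, lies on the plus strand at chr8:70698949-70700616. It had 16.2, 10.3, 7.77 and 12.8 CPM (mean 11.8 ± 3.59), a graded order in which no tumor stood apart. Ier2, an immediate-early gene whose nuclear protein takes part in transcription control, lies on the minus strand at chr8:84661331-84662852. It had 27.0, 18.0, 10.9 and 17.2 CPM (mean 18.3 ± 6.62), with tumors 2 and 4 close together between the other two. The highest tumor was 2.14, 2.08 and 2.48 times the lowest for Junb, Jund and Ier2, with 95% exact intervals from the counts of 1.69 to 2.73, 1.54 to 2.84 and 1.94 to 3.20.

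The annotation of Junb and Jund bears on their counts. Junb overlaps Prdx2 on the opposite strand over 351 bases, and Prdx2, a peroxidase, had 319, 276, 261 and 228 CPM, highest in tumor 1 as Junb was. The part of Prdx2 in the counts of Junb was not tested. Jund overlaps the antisense gene Gm11175 over 919 bases, which reached 0.123 CPM. The library kit kept strand, but the strand setting of the counting is not given in the sources used here. Atf3 overlaps Gm24748, which had no counts, and Zfp36 overlaps Gm44710, which the count table does not list. No overlap was annotated for Fos, Fosb, Egr1, Ier2 and Nr4a1, and the near-identical stretches found for the 10 genes were with Junos and Gm11175.

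The same 3 genes had the highest GC content of the 10. The longest transcript of Jund had 67.1% GC, that of Junb 62.6% and that of Ier2 60.9%, above 99.95%, 99.2% and 98.0% of the genes tested, whose median was 49.6%. Over all genes tested, GC content and the deviations of tumors 1 and 3 moved together. In the highest of 20 GC bins (59.2% to 69.5%, 705 genes) the median deviation of log2 CPM was 0.25, -0.05, -0.21 and -0.01 in tumors 1 to 4, and in the lowest bin (29.6% to 39.7%) it was -0.10, -0.04, 0.10 and 0.04. The 3 genes deviated further in the same directions, with Ier2 at 0.63 in tumor 1 and -0.67 in tumor 3. With the bin medians subtracted, an alternative added after the data were seen, Ier2 was at 0.38 and -0.47, Junb at 0.44 and -0.20, and Jund at 0.25 and -0.34. In this form the lowest tumor of Junb was tumor 4, at -0.22. All 3 still varied beyond counting noise, with 8.14, 8.33 and 3.18 per degree of freedom for Ier2, Junb and Jund, in place of 20.5, 20.9 and 9.32. The part of GC content in these values was not tested.

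**Figure D2:**
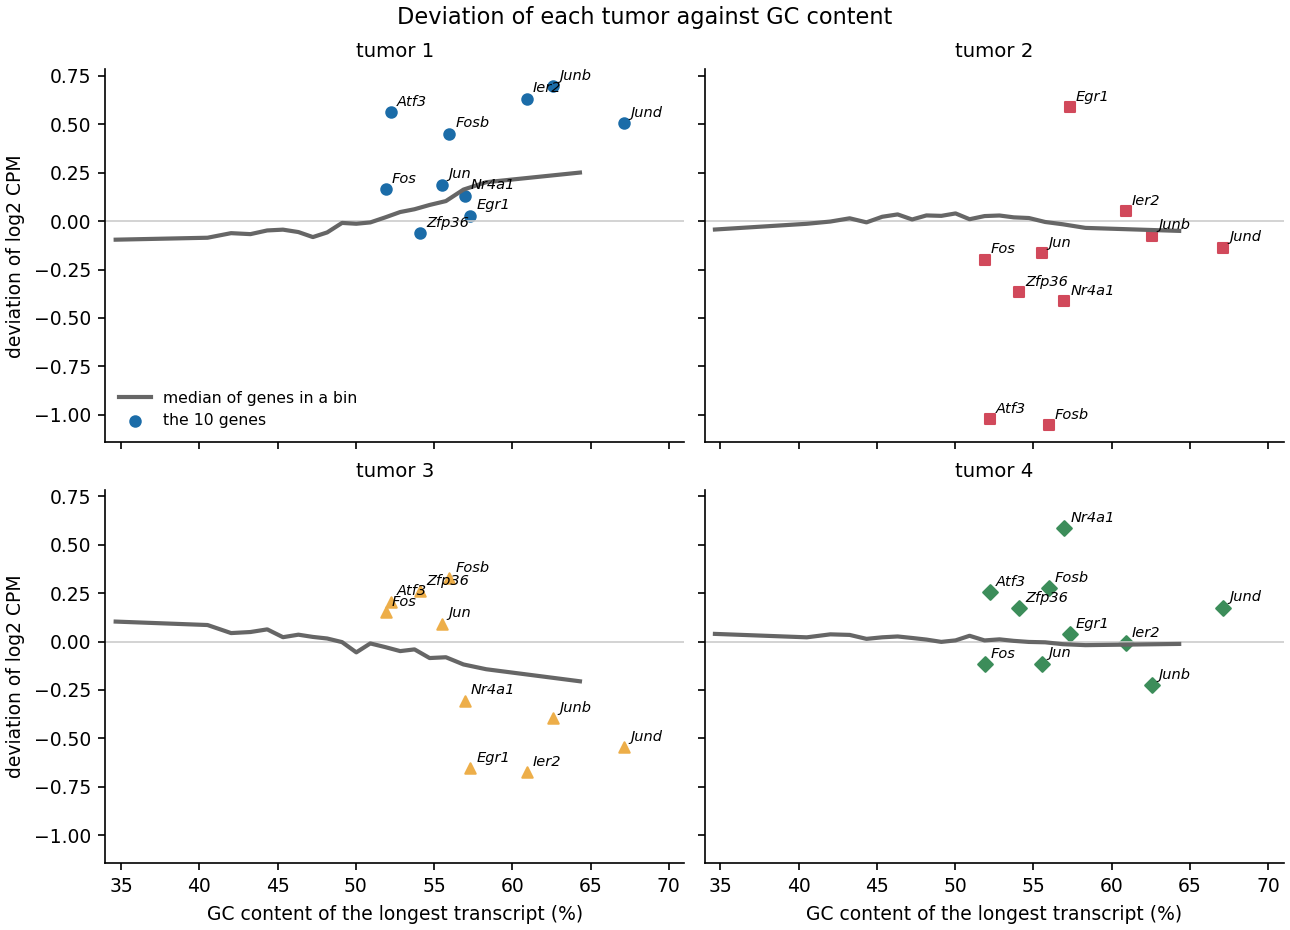
Deviation of log2 CPM from the mean of each gene over 4 tumors (y) against the GC content of its longest transcript in percent (x), 1 panel per tumor. Points are the 10 genes and the line is the median of the genes tested in each of 20 GC bins: it climbs to 0.25 in tumor 1 and falls to -0.21 in tumor 3, and Junb, Jund and Ier2 lie beyond it in both.

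Egr1 and Nr4a1 each had a pattern of their own. Egr1, a zinc finger transcription factor induced by ERK signaling through serum response factor, lies on the plus strand at chr18:34859823-34864984 with 2 exons. It had 40.3, 59.4, 25.1 and 40.6 CPM (mean 41.3 ± 14.0, SD, n = 4), from 203 to 511 counts. It was highest in tumor 2, the tumor in which 6 of the other 9 genes were lowest, and its lowest tumor was tumor 3. The highest was 2.37 times the lowest (95% exact interval 2.01 to 2.80), and the chi-square per degree of freedom of 39.8 was the largest of the 10 genes. With the GC bin medians subtracted, tumors 2 and 3 deviated by 0.61 and -0.53, in place of 0.59 and -0.65.

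Nr4a1, an orphan nuclear receptor induced by growth factors, calcium and stress, lies on the plus strand at chr15:101254269-101274795 with 8 exons. It had 11.9, 8.13, 8.76 and 16.3 CPM (mean 11.3 ± 3.73, SD, n = 4), from 70 to 137 counts. Tumor 4 was highest, and tumors 2 and 3 were close together at the bottom. The highest was 2.00 times the lowest (1.49 to 2.71), and the spread was beyond counting noise, at 10.4 per degree of freedom. The sign of its small deviation in tumor 1, 0.13, turned to -0.03 with the GC bin medians subtracted.

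Zfp36 encodes tristetraprolin, a zinc finger protein that binds AU-rich elements in 3′ UTRs and speeds the decay of those mRNAs, its own and that of Fos among them. It lies on the minus strand at chr7:28376784-28380253 with 2 exons. It had 41.4, 33.5, 51.7 and 48.6 CPM (mean 43.8 ± 8.14, SD, n = 4), from 288 to 419 counts. It was lowest in tumor 2, and the 1 gene of the 10 that was highest in tumor 3. The highest tumor was 1.55 times the lowest (1.33 to 1.80), with 12.8 per degree of freedom.

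The elements that Zfp36 binds were looked up in the 3′ UTRs of the 10 genes, and 30 bases around 1 element are shown for each gene that had one. The heptamer TATTTAT was found in the 3′ UTR of 6 of 10 genes, beside 28.5% of 12808 tested coding genes with a UTR, and the nonamer TTATTTATT, which holds the heptamer, in 2 of 10, beside 7.38%. Only the strand of the mRNA was searched, and capitals mark the element. The windows are chr12:85477103-85477132 plus strand for Fos, chr7:28376950-28376979 minus strand for Zfp36, chr7:19303325-19303354 minus strand for Fosb, chr4:95049078-95049107 minus strand for Jun, chr8:70700359-70700388 plus strand for Jund and chr1:191170337-191170366 minus strand for Atf3 (GENCODE M21 transcripts, GRCm38).
Fos: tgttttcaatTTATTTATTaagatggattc
Zfp36: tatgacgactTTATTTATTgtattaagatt
Fosb: ccacccccagcTATTTATccctttcctggt
Jun: ttgcttgtgcaTATTTATaatagcgttcgt
Jund: cgattccgcccTATTTATgtttctactcgg
Atf3: aaaatattactTATTTATcccagtattcct

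Fos and Zfp36, the 2 genes with the nonamer, were also close in their deviations, at a root mean square of 0.21, but Jun, with the heptamer alone, was closer to Fos. The 4 genes without either element were Junb, Egr1, Ier2 and Nr4a1. A further feature was the absence of introns: 4 of the 10 genes, Jun, Junb, Jund and Ier2, had 1 exon in the principal transcript, beside 1.94% of the tested coding genes.

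Seen over the 10 genes, tumor 1 was highest for 7 and tumor 2 lowest for 6, beside 31.4% and 19.4% of all genes tested. With the GC bin medians subtracted, tumor 1 was highest for 4 and tumor 3 for 4, and tumor 2 stayed lowest for 6. Of all genes tested, 30.2%, 31.6% and 19.8% did so on this scale. The mean deviation over the 10 genes was 0.33, -0.28, -0.15 and 0.10 in tumors 1 to 4, and 0.19, -0.27, -0.04 and 0.11 after the subtraction. Without Fosb, the gene of the lowest counts, the 9 others were at 0.32, -0.19, -0.21 and 0.08 as measured. The 10 genes therefore did not move as 1 block: the pairs furthest apart were Fosb with Egr1 (root mean square 0.99) and Atf3 with Egr1 (0.96), which had their opposite extremes in tumor 2.

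**Figure D3:**
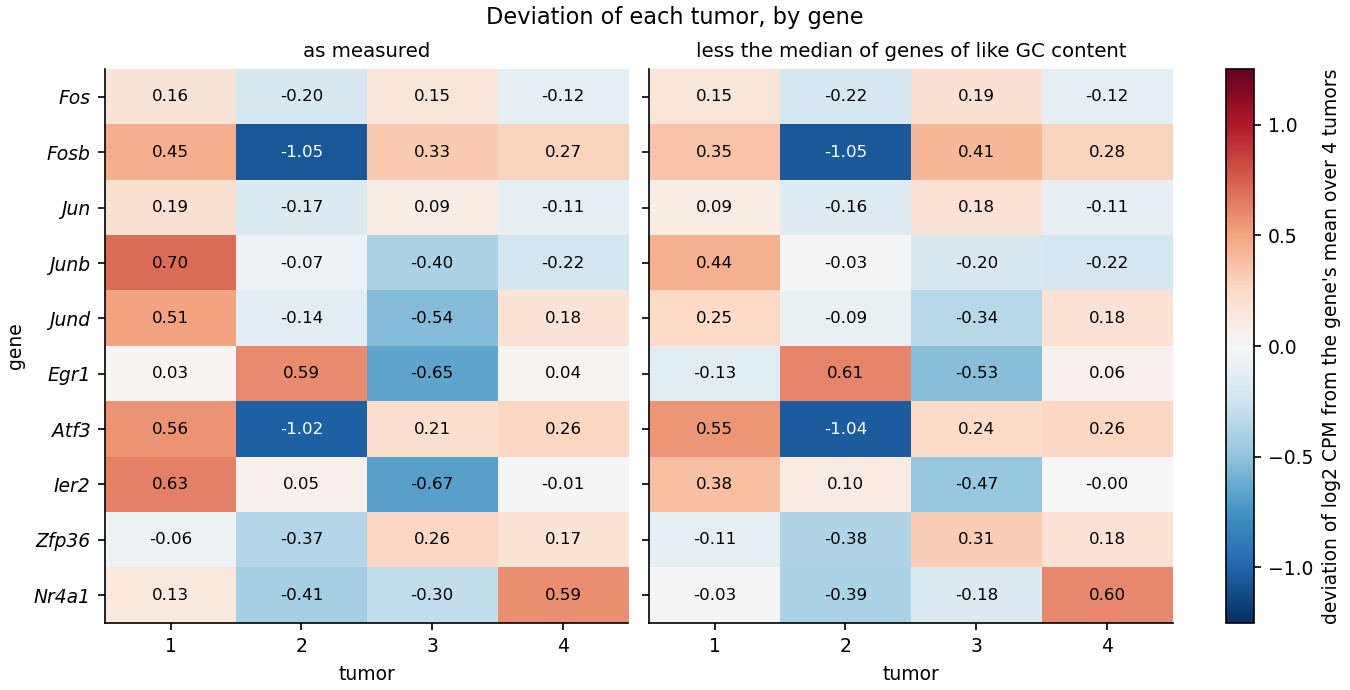
Deviation of log2 CPM of each tumor from the mean of the gene over 4 tumors, as measured (left) and with the median of genes of like GC content subtracted (right), with the value in each cell. Tumor 2 holds the lowest values of Fosb (-1.05) and Atf3 (-1.02) and the highest of Egr1 (0.59), and the contrast of tumors 1 and 3 for Junb, Jund and Ier2 is smaller on the right.

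Levels were compared between genes per kilobase of exon. The order of mean CPM per kilobase was Zfp36 (12.6 ± 2.35, SD, n = 4), Ier2 (12.0 ± 4.35), Fos (11.6 ± 1.48), Jun (9.37 ± 1.10), Egr1 (9.21 ± 3.13), Junb (7.40 ± 2.77), Jund (7.06 ± 2.15), Atf3 (4.29 ± 1.67), Nr4a1 (3.21 ± 1.06) and Fosb (0.220 ± 0.0858). Zfp36, at the top, stood above 69.0% of all genes tested on this scale, and Fosb above 1.20%. Of the 9 neighboring pairs in this order, 3 kept their order in 4 of 4 tumors: Fos above Jun by 0.31 ± 0.04 (log2 difference, SD, n = 4), Jund above Atf3 by 0.78 ± 0.68, and Nr4a1 above Fosb by 3.93 ± 0.61. For each of these 3 an exact permutation test that flipped signs within the 4 tumors (two-sided) gave p = 0.125, the smallest that 4 tumors allow, so no difference could pass 0.05. The other 6 pairs, such as Zfp36 and Ier2 at 0.13 ± 0.72, changed order between tumors. With the longest transcript as length, Fos came before Ier2 and Junb before Jun.

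**Figure D4:**
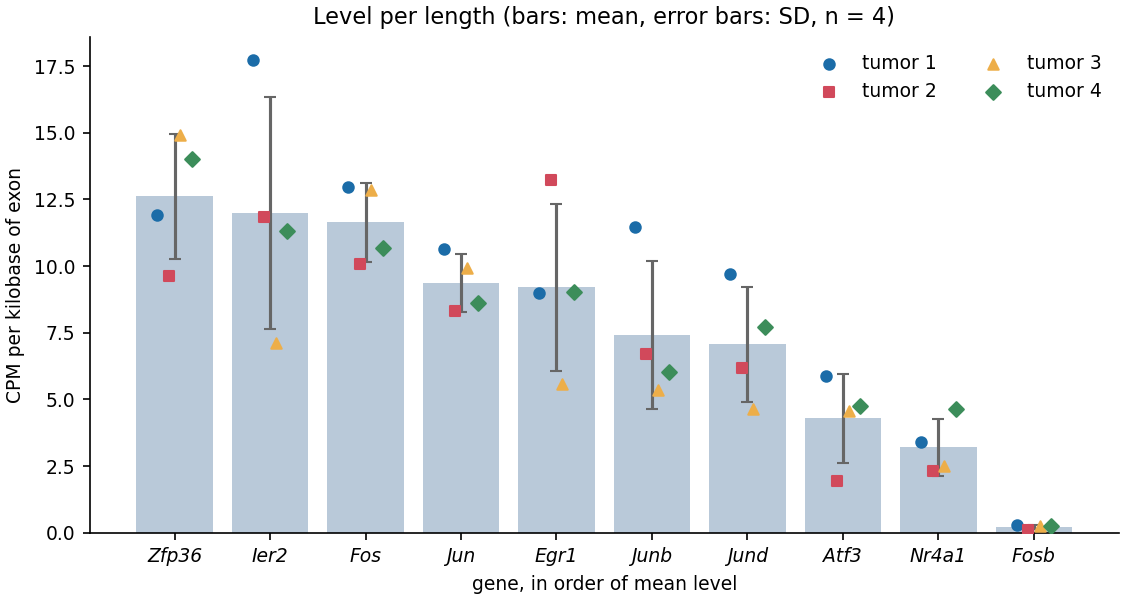
CPM per kilobase of exon for the 10 genes in order of the mean, with bars for the mean, error bars for the SD (n = 4) and a point for each tumor. The bars run from 12.6 for Zfp36 to 0.220 for Fosb, and the points of most neighbors overlap.

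Within each tumor, the other 9 genes were set against Jund, a ratio that does not depend on library size. The ratios were not adjusted for GC content, which was highest for Jund. Its own level ran from 16.2 CPM in tumor 1 to 7.77 CPM in tumor 3, and this enters every ratio. The overlap of Jund with Gm11175 may bear on every ratio too if strand was not used in counting. On the CPM scale, which also reflects transcript length, 6 genes were above Jund in 4 of 4 tumors: Zfp36 (mean log2 ratio 1.93 ± 0.59, SD, n = 4), Egr1 (1.80 ± 0.51), Jun (1.39 ± 0.45), Fos (1.26 ± 0.48), Ier2 (0.61 ± 0.19) and Junb (0.52 ± 0.27). Nr4a1 was at -0.07 ± 0.39 and Atf3 at -0.41 ± 0.68, each on both sides of Jund, and Fosb was below it in 4 of 4 tumors at -3.17 ± 0.77. The ratios of Ier2 and Junb varied least between tumors, and both genes lay in the highest GC bin, as Jund did. The part of GC content in the ratios was not tested. Per kilobase, the ratios in 4 of 4 tumors were still above 0 for Zfp36 (mean 0.87), Fos (0.76), Ier2 (0.74) and Jun (0.45). Egr1 (0.37) and Junb (0.05) were above 0 in 3 of 4 tumors. Atf3 (-0.78), Nr4a1 (-1.14) and Fosb (-5.08) were below 0 in 4 of 4 tumors on this scale.

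The make-up of AP-1 mRNAs was described by the share of each gene in its family, from CPM per kilobase of exon. Shares of the proteins were not measured. In the Jun family, Jun made up 33.4%, 39.1%, 49.8% and 38.5% in tumors 1 to 4 (mean 40.2% ± 6.88, SD, n = 4), with Junb at 30.4% ± 4.39 and Jund at 29.4% ± 4.59. Junb was the largest part in tumor 1, at 36.1%, and Jun in the other 3 tumors. These ranks depend on the length used: with the longest transcript as length, the mean level of Junb was above that of Jun. The overlap of Junb with Prdx2 also bears on its share. Shares were not adjusted for GC content, and Junb and Jund lay in the highest of 20 GC bins, Jun in bin 17. In tumor 1 Junb deviated by 0.70, and by 0.44 with the GC bin medians subtracted, beside 0.19 and 0.09 for Jun. The part of GC content in the shares was not tested. In the Fos family, Fos made up 55.1% ± 4.20 and Fosl2, which encodes the Fos-related antigen Fra-2, 39.1% ± 2.02. Fosl1, which encodes Fra-1 and is itself an AP-1 target, made up 4.78% ± 3.28, and Fosb 1.02% ± 0.333. Fosl1 had 3.41, 1.39, 0.247 and 3.33 CPM, and its value in tumor 3 was 2 counts, under the floor. It shares a near-identical stretch with Ccdc85b, which makes its count uncertain. Fosl2 had 84.1, 69.1, 79.8 and 86.5 CPM. The families of the other genes were added after values were seen: Egr1 made up 78.9% ± 9.10 of Egr1, Egr2 and Egr3, and Nr4a1 59.7% ± 8.70 of the Nr4a genes. Zfp36 was the smallest part of its family, at 10.6% ± 2.84, beside 57.6% ± 4.85 for Zfp36l1 and 31.8% ± 5.73 for Zfp36l2.

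Genes with a similar course over the 4 tumors were looked for among 10261 other genes at a mean of 10 CPM or more. Ier2 was used as reference, since its SD was the largest among the genes of the 10 at that level. The 5 nearest were Rhpn2, Reep4, Gm10263, Cox5b and Itga3, at a root mean square difference of log2 deviations of 0.026, 0.030, 0.040, 0.043 and 0.048. Itga3, an integrin subunit of epithelial cells, had 197, 142, 81.1 and 135 CPM. The 5 genes nearest to the mean deviation of the 10 genes were Dus3l, Myo1c, Ccdc55, Baiap2 and Cachd1, at 0.016 to 0.026. None of these 10 genes was in a list below, and with 4 tumors and many genes close matches occur often.

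Other genes of the response were read from 6 lists of 97 genes, of which 96 were matched and 87 tested. Counts of 71 of these 87 varied beyond counting noise, as did 76.7% of all 14225 genes tested. In the list of other immediate-early genes, 16 of 21 tested genes did so (76.2%, beside 76.7% of all genes), with a median SD of 0.30. Mcl1, a survival gene of the Bcl-2 family with the highest CPM of the list, not scaled by length, had 330, 306, 305 and 363 CPM. Btg2, an antiproliferative gene, had 188, 158, 144 and 168 CPM. The zinc finger factor Klf6 had 153, 116, 202 and 166 CPM, lowest in tumor 2 and highest in tumor 3 as Zfp36 was. Klf4 had 14.0, 14.2, 17.8 and 18.8 CPM. Ier3, a survival gene, had 30.04, 15.2, 19.7 and 26.3 CPM, lowest in tumor 2 as Fosb and Atf3 were. The kinase Sgk1 had the largest SD among genes of the list at 10 CPM or more, 0.60, with 29.2, 23.1, 60.8 and 31.8 CPM. All 6 varied beyond counting noise. Tumor 2 was the lowest for 10 of the 21 genes, beside 19.4% of all genes tested, and the mean deviation of the list in it was -0.15.

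Among AP-1 partners, 8 of 10 tested genes varied beyond counting noise, beside 76.7% of all genes. The spread was small, with a median SD of 0.20, beside 0.29 over all genes tested. Atf4, the effector of the integrated stress response, had 171, 162, 156 and 190 CPM, and Atf2, a target of p38 and JNK kinases, had 95.1, 104, 84.2 and 113 CPM. Maff, a small Maf protein, had 36.3, 31.4, 37.1 and 44.2 CPM. Their mean deviation was -0.04, -0.06, -0.07 and 0.17 in tumors 1 to 4, and the value of tumor 4 rests on Fosl1, the low and uncertain count described above. Without Fosl1, the 9 other partners were at -0.17, -0.06, 0.17 and 0.06, with tumor 3 the highest.

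Among upstream inputs, 15 of 17 genes varied beyond counting noise (88.2%, beside 76.7% of all genes). With the GC bins taken into account 12 did, beside 75.9% of all genes. Rps6ka3, a kinase downstream of ERK, had the highest CPM and an SD of log2 CPM of 0.43, with 178, 278, 362 and 236 CPM. Mapk14, the p38 kinase, had 155, 116, 108 and 124 CPM, highest in tumor 1. The mean deviations of this list were 0.03, 0.05, -0.07 and -0.01 in tumors 1 to 4.

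In the list of feedback and decay genes, 19 of 20 varied beyond counting noise, beside 76.7% of all genes. With the GC bins taken into account 18 did, beside 75.9% of all genes. Tumor 3 was the lowest for 14 of the 20 genes, beside 32.5% of all genes tested, with a mean deviation of -0.25. Dusp6, the ERK phosphatase, had 262, 341, 254 and 322 CPM, highest in tumor 2 and lowest in tumor 3 as Egr1 was. Dusp1, a phosphatase of p38 and JNK that is itself an immediate-early gene, had 29.5, 26.1, 44.1 and 57.7 CPM, highest in tumor 4 as Nr4a1 was, and its SD of 0.53 was the largest of the list among genes at 10 CPM or more. Cnot1, the scaffold of the deadenylase that Zfp36 recruits, was close to level, with 304, 332, 348 and 327 CPM, and shares near-identical stretches with 2 other genes. Zfp36l1 had 252, 191, 177 and 214 CPM and Zfp36l2 had 124, 171, 104 and 144 CPM, neither in the order of Zfp36.

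Of mRNAs known to be bound by Zfp36, 6 of 8 were tested and 2 varied beyond counting noise (33.3%, beside 76.7% of all genes). All 6 were highest in tumor 3, as Zfp36 and 30.2% of all genes tested were. For 4 of the 6 the spread did not pass the test against counting noise, as for Csf2, a myeloid growth factor gene named after its values were seen, with 51, 54, 56 and 55 counts. Il1b, a cytokine of myeloid cells, had 14.6, 11.3, 18.1 and 12.7 CPM, and Cxcl1, a chemokine that draws neutrophils, had 6.60, 12.8, 20.98 and 11.8 CPM. Without tumor 3, 1 gene of the list varied beyond counting noise, and without tumor 4, 4 did, beside 62.4% and 71.9% of all genes. The pan-leukocyte markers summed to 113, 139, 275 and 158 CPM, and 5 of 5 were highest in tumor 3 as well. Among tested markers of leukocyte types, 4 of 7 macrophage, 3 of 5 neutrophil and 3 of 4 T cell markers were highest there. The macrophage markers C1qa, C1qb and C1qc and the T cell marker Lck were lowest in tumor 3. The 1 tested B cell marker was highest in tumor 4. The part of leukocyte content in the values of these mRNAs and of Zfp36 was not tested, and in bulk RNA fewer cells of a type and less RNA per cell cannot be told apart.

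Of heat shock genes, which dissociation at warm temperature can induce, 11 of 13 varied beyond counting noise (84.6%, beside 76.7% of all genes). The median SD of the list was 0.17. Hspa8, the constitutive chaperone, had 2720, 2680, 2458 and 2405 CPM, and Hsp90ab1 had 2926, 2165, 1875 and 2051 CPM. Hspa8 shares near-identical stretches with 11 other genes, and its count is uncertain. The inducible chaperone Hspa1b had the largest SD, 0.67, with 25.9, 13.4, 33.9 and 13.8 CPM, so that tumors 1 and 3 were above tumors 2 and 4, the same pairs as for Fos and Jun. Its near-identical copy Hspa1a had 4.07, 4.53, 7.53 and 5.95 CPM, and the counts of both are uncertain since reads may be split between them. Without tumor 3, 7 of the list varied beyond counting noise, beside 62.4% of all genes.

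**Figure D5:**
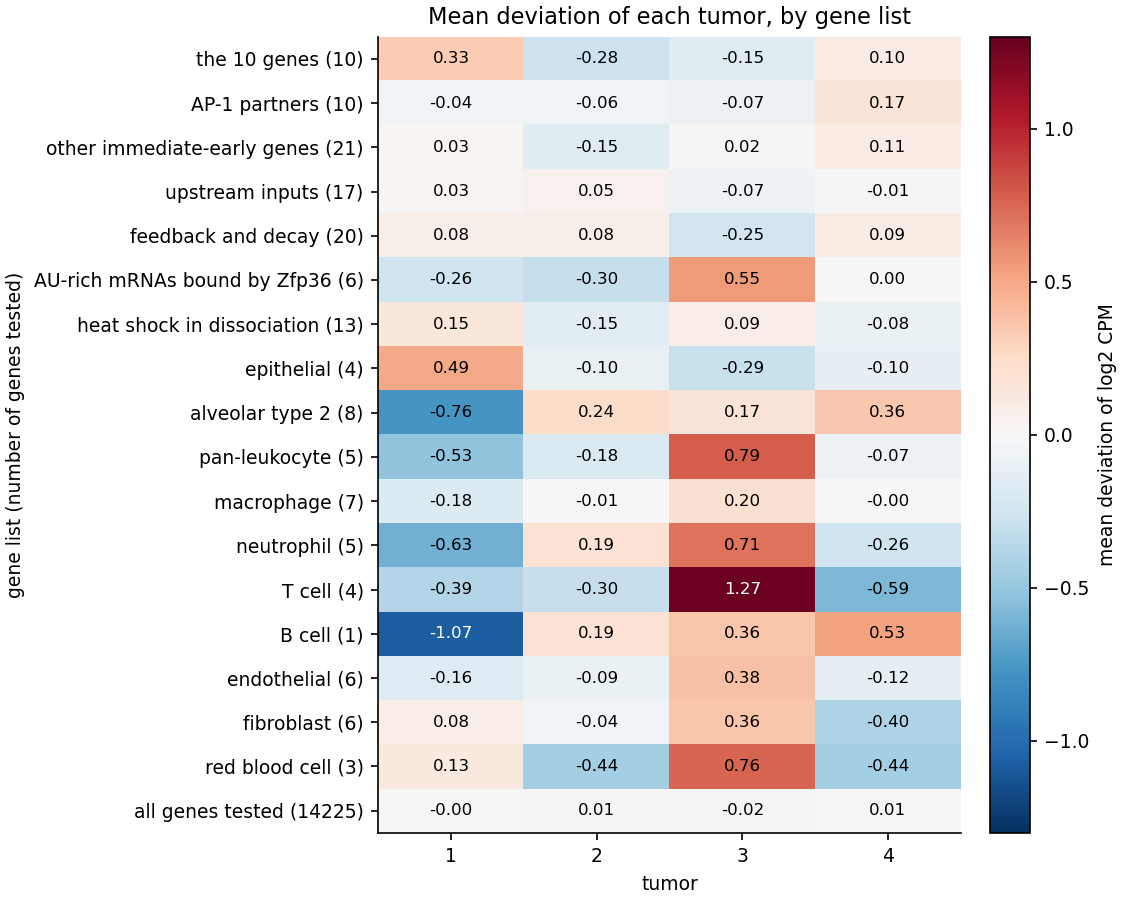
Mean deviation of log2 CPM of each tumor over the tested genes of each list, with the number of genes tested in parentheses and the value in each cell. The 10 genes run from 0.33 in tumor 1 to -0.28 in tumor 2, pan-leukocyte and T cell markers are highest in tumor 3 (0.79 and 1.27), and alveolar type 2 markers are lowest in tumor 1 (-0.76).

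Markers of cell types also differed between tumors. Of the 4 epithelial markers 3 were highest in tumor 1 (summed CPM 3972, beside 2488 to 2632 in the others), as 31.4% of all genes tested were. Cdh1 was lowest there, at 842 CPM beside 846 to 887 in the others. The mean deviation of the list in tumor 1 was 0.49, and 0.41 with the GC bin medians subtracted. Tumor 1 was highest for 7 of the 10 genes, and for 4 with the medians subtracted. Alveolar type 2 markers were lowest in tumor 1 for 6 of 8 genes, beside 30.4% of all genes tested, at a summed 32860 CPM. The summed ranges over the 4 tumors were 216 to 302 CPM for 7 macrophage markers, 27.5 to 66.9 CPM for 6 neutrophil markers, 6.16 to 22.1 CPM for 6 T cell markers and 6.16 to 18.4 CPM for 4 B cell markers. They were 200 to 277 CPM for 6 endothelial, 321 to 565 CPM for 6 fibroblast and 15.3 to 34.9 CPM for 3 red blood cell markers. The neutrophil marker Ly6g had 3 counts or fewer in every tumor. How far the cells present set the levels of the 10 genes was not tested.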

How the data were processed

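Single-end reads were trimmed by the authors with Cutadapt (1.4.2 in the processing notes, another version in the methods), aligned to mm10 with HISAT2 and counted per gene with featureCounts 1.4.4, per the labels' processing notes. The strand setting and the annotation release are not given in the sources used here. The deposited count tables hold raw counts, and the combined table equalled the single-tumor tables in 156068 of 156068 values. The authors also deposited log2 values (TMM and voom), used here as an alternative.

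The genes and lists were chosen with earlier results of these data known. Effective sizes were totals times TMM factors (edgeR 4.0.16, R 4.3.3). For log2 CPM, counts were raised by 0.5 and effective sizes by 1, and genes at a mean of 1 CPM or more were tested. With 1 group, the quasi-likelihood test has no contrast. Spread was tested by chi-square against Poisson expectations, with Benjamini-Hochberg adjustment over 14225 genes. The coefficient of variation was obtained from edgeR's gene-wise dispersion (its root, prior.df 0), and a tumor stands apart where Dixon's ratio exceeds its 95% limit, which noise passes in about 5% of genes. Scripts were tested on simulated data. Alternatives were DESeq2 1.42.0 size factors and dispersions, library size alone, other filters, additions and lengths, leaving out each tumor and, added later, GC bins and lists without their most variable gene.

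Positions, exons and lengths are from GENCODE M21 (GRCm38, the build of mm10), where 37607 of 39017 IDs (96.4%) were found. Near-identical copies were found with BLAST 2.17.0 (80 nt at 97% identity or more). Intervals cover counting error only, and reads carried no molecular identifiers. Named genes were, by rule, the 10 genes, the 2 most abundant and the most variable gene at 10 CPM or more of each of 6 lists, 11 further genes given whatever their values, the 5 genes nearest to Ier2 and to the mean course, and genes overlapping or copying the 10.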

Additional observations from a re-analysis of the deposited data

Results flagged for a closer look

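Of 36 quantities looked at over the 4 tumors (log2 CPM of the 10 genes, their 9 ratios to Jund and the mean log2 CPM of 17 lists), 6 had a tumor far from the other 3, and chance gives about 1 in 20. The value is the gap of the extreme tumor to its nearest neighbor over the whole range. Fosb was apart in tumor 2, which was low, at 0.882, from 5 counts against 13 to 16. Feedback and decay genes were apart in tumor 3, low, at 0.962, and AP-1 partners in tumor 4, high, at 0.853. The latter rests on Fosl1, with 2 counts in tumor 3 and 28 in tumor 4, and without it the list was highest in tumor 3. Among markers, alveolar type 2 genes were apart in tumor 1, low, at 0.831. T cell markers (0.844) and endothelial markers (0.867) were apart in tumor 3, high. Without the gene of the largest SD in each list, chosen after the values were seen, the ratio was 0.836 for endothelial markers, 0.810 for feedback and decay genes, 0.715 for alveolar type 2 genes, 0.492 for T cell markers and 0.330 for AP-1 partners, and of these only that of endothelial markers was past its limit. The lists share 4 libraries, so these values are not independent of each other.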

How the results depend on the processing

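No paired analysis was possible because all 4 libraries belong to 1 group. Of the 10 genes, 9 varied beyond counting noise with DESeq2 size factors, with library size alone, without a filter and with GC bins. At a mean of 10 CPM it was 8 of the 8 genes left, and leaving out 1 tumor gave 6 to 9. Of all genes tested, 76.6%, 77.3%, 53.5% and 75.9% did so in the settings of the 9 genes, in the order named. The share was 85.3% at a mean of 10 CPM and 62.3% to 71.9% without 1 tumor. The median SD was 0.33 with GC bins, where that of all genes tested was 0.28, and 0.29 to 0.54 without 1 tumor, the lowest without tumor 2 and the highest without tumor 4. The median coefficient of variation was 30.7% with DESeq2 dispersions and 18.1% to 36.5% without 1 tumor. The count of genes with a tumor apart went from 1 to 0 at a mean of 10 CPM or more, a filter that removes Fosb. Neighbors in the order per kilobase that kept their order in all tumors numbered 3 with the longest transcript, 4 without length and 2 to 4 without 1 tumor. The median ratio to Jund stayed between 0.55 and 0.67, and the lists held 58 to 72 varying genes. Of single genes, Fos, Jun, Junb and Atf3 lost their call without 1 tumor, as given above. Some small values changed sign: Nr4a1 against Jund, at -0.07, was 0.06 without tumor 1 and 0.02 without tumor 2, and with GC bins tumor 1 went from 0.13 to -0.03 for Nr4a1 and from 0.03 to -0.13 for Egr1. Ier2 came before Zfp36 per kilobase without tumor 3 or without tumor 4. Depth limits Fosb most, at 5 to 16 counts.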

Other observations

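The genes of the 6 lists nearest in course to each of the 10 genes were looked up among 68 at a mean of 10 CPM or more, after the values had been seen and with no test. Nearest to Zfp36 were Klf6, Mafg and Mapkapk2, at root mean square differences of log2 deviations of 0.079, 0.087 and 0.11. Mapkapk2 encodes the kinase downstream of p38 that phosphorylates the Zfp36 protein, and it had 129, 115, 144 and 152 CPM. Nearest to Egr1 were the feedback and decay genes Tob2, Dusp5 and Zfp36l2, at 0.13, 0.19 and 0.20, and Dusp5, an ERK phosphatase, had 19.9, 29.97, 17.0 and 24.0 CPM. Nearest to Junb was Hsp90aa1, the inducible Hsp90 gene, at 0.12, with 1358, 725, 685 and 820 CPM, and its count is uncertain because 3 other genes share near-identical stretches with it. Fosb, Atf3 and Nr4a1 had 2 of their 3 nearest genes in common, Ier3 and Ptgs2, but at larger differences, 0.36 and 0.37 for Fosb, 0.31 and 0.38 for Atf3 and 0.25 and 0.21 for Nr4a1. Ptgs2, the inducible cyclooxygenase, had 26.1, 17.5, 26.0 and 33.5 CPM, lowest in tumor 2. These 3 genes with Ier3 and Ptgs2 share low values in tumor 2, and all of these differences rest on the same 4 libraries.

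Egr3 and Npas4, also immediate-early genes, were barely detected at this depth. Egr3 had 1 count in tumor 2 and none in the other tumors, and Npas4 had 1 count in tumor 3. Egr3 and Npas4 are known for their induction by activity in neurons.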
